A study of Homo sapiens with 4 samples.

Results

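UPP1 and 9 other genes of nucleoside salvage were followed in MHCC-LM3 cells, a human line of hepatocellular carcinoma. UPP1 was chosen by its large zerumbone minus DMSO difference in these same arrays, and the other genes were listed for their place in the pathway. For each gene, the transcript cluster that the array annotation gives to that gene alone was read. This left 8 genes of the 10 listed, among 22465 genes measured in all. UCK2 and UCKL1, the remaining uridine-cytidine kinase genes, are each annotated on 1 cluster together with a microRNA gene and are not analysed here.

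Cells were given zerumbone, a sesquiterpene of ginger plants, at 50 µM, or the solvent DMSO, for 24 h. Total RNA was hybridised to 2 arrays in the zerumbone group and 2 arrays in the DMSO group. Both groups were the same line, grown in the same serum-containing medium. The labels do not state whether the 2 arrays of a group are from different cultures. The p-values therefore reflect only the spread between arrays, and that spread may be technical. For each gene, limma moderates its own spread with the spread over all genes. The number of arrays limits the precision. The labels give no replicate numbers, and those used below follow the order in which the readings of each group are printed. Expression is given in log2 units as deposited after RMA, so a difference of 1 is a doubling on the array's scale. In bulk RNA, fewer cells holding a transcript and less of it per cell cannot be told apart.

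Salvage recovers nucleosides and bases released by breakdown of RNA and DNA, or taken up from the medium, and so spares the costly synthesis of nucleotides from small precursors. Transporters let nucleosides cross membranes, kinases trap them as nucleotides, and deaminases convert one base into another. Phosphorylases take the opposite route and split a nucleoside into its base and a ribose phosphate. UPP1 does this with uridine, giving uracil and ribose-1-phosphate, and the sugar can enter the pentose phosphate pathway and glycolysis. In the liver, uridine is both made and degraded, and the organ helps to set its level in blood.

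The bases upstream of 2 UPP1 start sites are shown because UPP1 has by far the largest difference of the 8 genes. They are from RefSeq on GRCh38.p14, plus strand, at chr7:48088454-48088703 for the first start site and chr7:48089004-48089253 for the second. A further listed window, chr7:48089015-48089264, overlaps the second almost entirely and is not shown. Capitals mark matches on either strand to AP-1 (TGANTCA) in the first and to the GC box (GGGCGG) in the second.
UPP1 first start: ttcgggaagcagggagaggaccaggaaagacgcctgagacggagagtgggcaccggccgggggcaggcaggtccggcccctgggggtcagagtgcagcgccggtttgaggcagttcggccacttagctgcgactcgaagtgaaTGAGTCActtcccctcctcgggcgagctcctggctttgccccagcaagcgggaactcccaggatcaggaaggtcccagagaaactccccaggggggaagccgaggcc
UPP1 second start: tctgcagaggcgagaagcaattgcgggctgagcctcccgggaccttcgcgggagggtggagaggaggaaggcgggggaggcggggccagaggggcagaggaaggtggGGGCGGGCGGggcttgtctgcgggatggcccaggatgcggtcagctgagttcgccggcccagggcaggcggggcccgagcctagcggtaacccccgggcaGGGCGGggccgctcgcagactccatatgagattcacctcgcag

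The first window held 1 AP-1 match and no GC box, and the second held 3 GC boxes, of which 2 overlap, and no AP-1 match. Over all 34943 promoter windows of 250 bases, 6.59% held the AP-1 letters and 42.5% the GC box. Across the 12 windows of the 8 genes, some of which overlap, AP-1 matched in 1 and the GC box in 8. The E-box (CACGTG, in 6.32% of all windows) matched in 2, those of DCK and SLC29A1, and the antioxidant response letters (TGACNNNGC, 10.9%) in 1, that of DCK, overlapping its E-box. The letters of the ATF4 and C/EBP composite element (TGATGNAA, 3.15%) and of the paired heat shock unit (GAANNTTC, 5.80%) matched in 0. These are letter matches, and the arrays do not show which start site was used.

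UPP1 read 12.33 and 12.01 on the zerumbone arrays, against 7.18 and 7.08 on the DMSO arrays. Both zerumbone values lay far above both DMSO values. The means were 12.17 ± 0.224 under zerumbone and 7.13 ± 0.064 under DMSO (SD, n = 2 each), a difference of 5.04 and 32.9-fold on the scale of the deposited values. This was the fourth largest of all positive differences. Because UPP1 was chosen for this difference, the values are a description and carry no test. All 4 readings were above background level, taken as the 95th percentile of the 23 antigenomic background rows on the same array. That level was 4.74 and 5.03 on the zerumbone arrays, and 4.54 and 5.10 on the DMSO arrays. It differed within each group, so a gene with similar readings near it can count as above it on 1 array only.

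The second uridine phosphorylase gene, UPP2, was at background level on all 4 arrays. It averaged 3.67 ± 0.035 under zerumbone and 3.53 ± 0.021 under DMSO (SD, n = 2 each), with a limma adjusted p of 0.162. UPP1 was thus the one uridine phosphorylase gene with signal above background on these arrays.

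**Figure D1:**
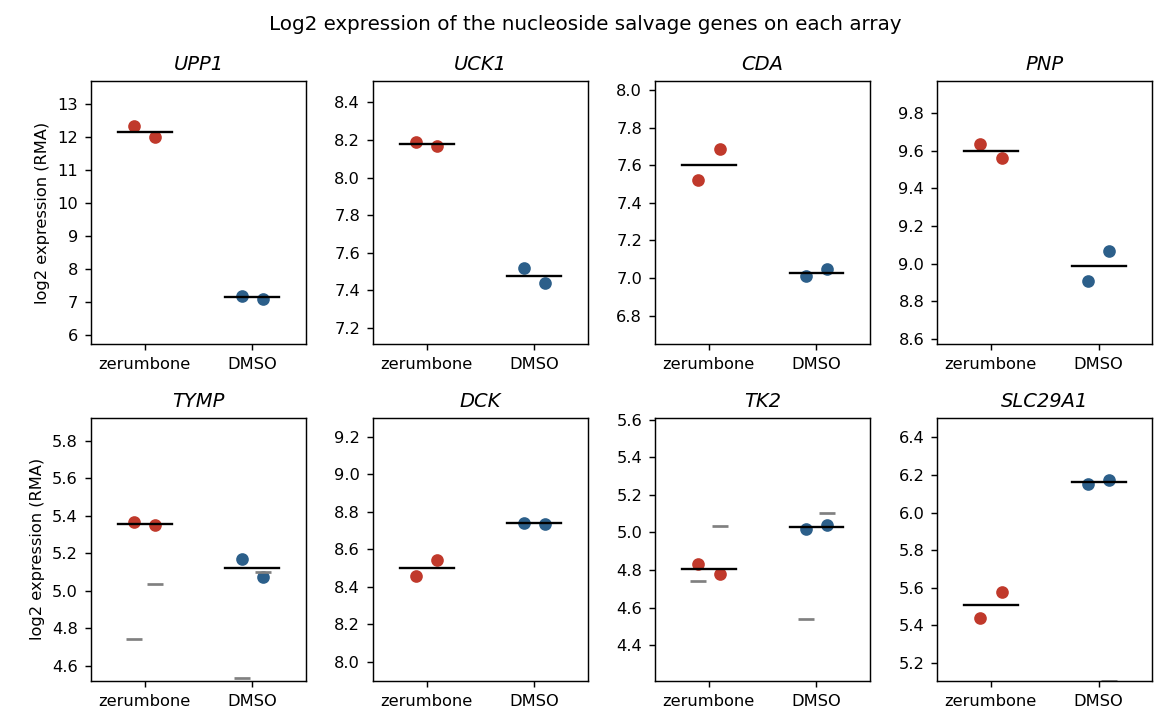
Log2 expression of the 8 genes, with zerumbone left of DMSO; dots are arrays, black lines group means (n = 2 each) and grey dashes the background percentile of each array where it falls inside the panel. The axis of UPP1 spans more log2 units than the others, and in no panel do the groups overlap.

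Of the 7 other genes, 3 rose, 3 fell and 1 did not pass, against 36.0% of all genes called by limma in either direction. Higher calls made up 18.4% of all genes and lower calls 17.7%. These tests used lmFit and eBayes in limma, two-sided, with Benjamini-Hochberg adjustment over all 22465 genes and a threshold of 0.05. In none of the 7 did the groups overlap, which also held for 69.9% of all genes. The differences ran from -0.66 to 0.70, with a median absolute size of 0.57, against 0.18 over all genes. All 7 were above background level on at least 1 array. Of the 22465 genes, 10978 were above it on none, and the figures over all genes include these. With genes at background level in both groups left out, 3885 of 11487 genes rose and 4085 fell. In that setting 4 of the 7 rose and 3 fell. The genes were listed with earlier results of these data known.

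Among the kinases, UCK1, which phosphorylates uridine and cytidine and so retains them in the cell, read 8.19 and 8.17 under zerumbone, against 7.52 and 7.44 under DMSO. The zerumbone arrays were nearly identical and both were higher. UCK1 rose 1.63-fold, by 0.70 with a standard error of 0.065 (limma adjusted p = 0.00104). UCK1 and UPP1 act on the same substrate, uridine, and both transcripts were higher under zerumbone.

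DCK, the main kinase of deoxycytidine and of several nucleoside drugs, read 8.46 and 8.54 under zerumbone, against 8.74 and 8.74 under DMSO. The difference was small, at -0.24 with a standard error of 0.065 (limma adjusted p = 0.0439). TK2, the mitochondrial thymidine kinase, read 4.83 and 4.78 under zerumbone, against 5.02 and 5.04 under DMSO. TK2 was above background level on 1 array of each group, and its difference was -0.23 with a standard error of 0.062 (limma adjusted p = 0.0445). Both genes lost their call whichever array was left out, with adjusted p from 0.0520 to 0.193 for DCK and from 0.0698 to 0.210 for TK2.

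CDA, which deaminates cytidine to uridine and deoxycytidine to deoxyuridine, read 7.52 and 7.68 under zerumbone, against 7.01 and 7.05 under DMSO. Both zerumbone arrays were higher and differed more from each other than the DMSO arrays did. CDA rose 1.49-fold, by 0.57 with a standard error of 0.079 (limma adjusted p = 0.00418).

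PNP, which splits inosine and guanosine into a base and ribose-1-phosphate, read 9.63 and 9.56 under zerumbone, against 8.91 and 9.06 under DMSO. PNP rose 1.53-fold, by 0.61 with a standard error of 0.081 (limma adjusted p = 0.00369). TYMP, which splits thymidine and deoxyuridine, read 5.37 and 5.35 under zerumbone, against 5.17 and 5.08 under DMSO. It was above background level on both zerumbone arrays and on 1 DMSO array. Its difference of 0.23, with a 95% interval from 0.061 to 0.407, had a limma adjusted p of 0.0502. The background rows themselves differed by a median of 0.0785, and their part in the value of TYMP was not tested. With genes at background level in both groups left out, the adjusted p of TYMP was 0.0296, and over all other alternatives it ran up to 0.254, with a difference of 0.15 after median centring.

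SLC29A1 encodes ENT1, the equilibrative transporter that carries nucleosides across the plasma membrane in either direction. It read 5.44 and 5.58 under zerumbone, against 6.15 and 6.17 under DMSO. Both zerumbone arrays were lower. SLC29A1 fell 1.57-fold, with a difference of -0.66 and a standard error of 0.074 (limma adjusted p = 0.00211).

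**Figure D2:**
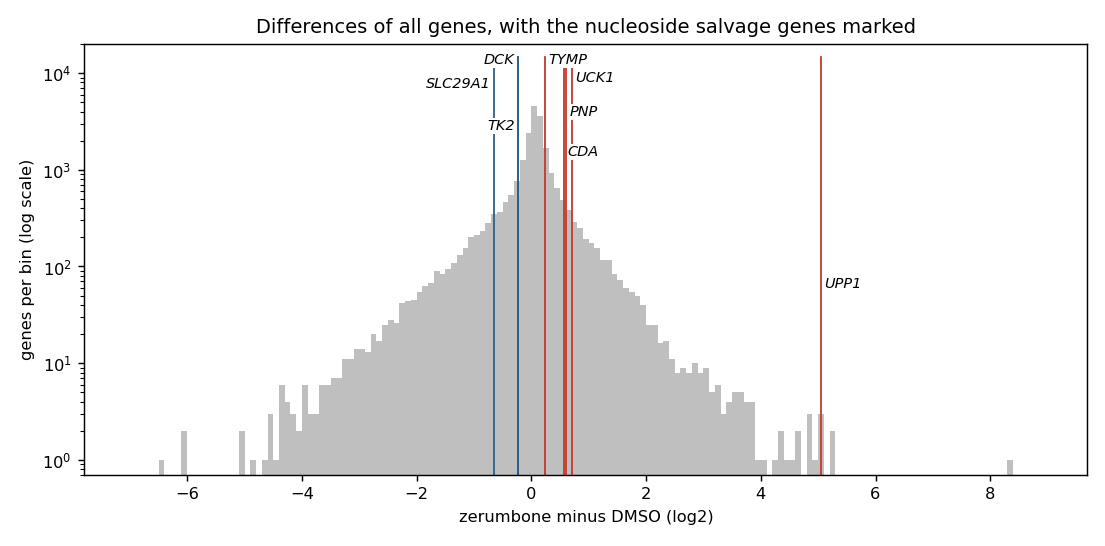
Histogram of the zerumbone minus DMSO difference of all 22465 genes (log2, bins of 0.1, logarithmic count axis), with the 8 salvage genes as lines, red where higher and blue where lower under zerumbone. UPP1 stands at 5.04, whereas the 7 others lie between -0.66 and 0.70.

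The rest of nucleoside metabolism was read from 10 lists arranged by enzyme role. Outside UPP1, 72 of their genes were measured, the 7 above included, and 12 rose, 27 fell and 33 did not pass. Over all genes, 18.4% were called higher and 17.7% lower. The median difference was -0.09, against 0.07 over all genes. At background level on all 4 arrays were 17 of the 72, against 10978 of all 22465 genes. The shares of all genes given beside the lists below include those at background level. With genes at background level in both groups left out, 13 of 55 rose and 32 fell, against 3885 and 4085 of 11487 genes.

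**Figure D3:**
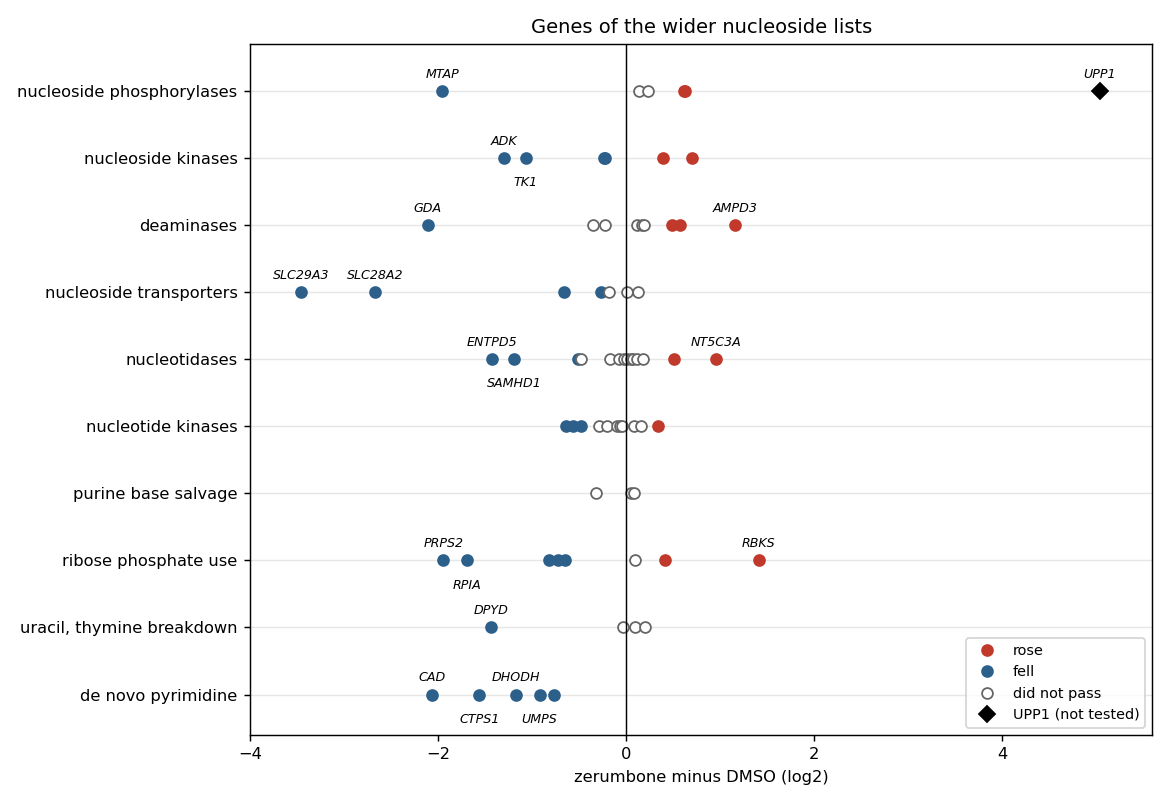
Zerumbone minus DMSO difference (log2) of each measured gene in the 10 nucleoside lists, one row a list; filled red rose, filled blue fell, open did not pass, and the black diamond is UPP1, which was not tested. The de novo pyrimidine genes all lie left of 0, and UPP1 stands alone at the right.

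Beside UPP1, the phosphorylase list held 2 rises and 1 fall among 5 genes, against 18.4% of all genes called higher and 17.7% lower. The rises were PNP and LACC1, an enzyme of purine nucleosides, which averaged 6.99 ± 0.005 under zerumbone and 6.36 ± 0.207 under DMSO (SD, n = 2 each; limma adjusted p = 0.0101). LACC1 lost its call without zerumbone replicate 1 (0.0513) or zerumbone replicate 2 (0.0517). The fall was MTAP, which cleaves methylthioadenosine from polyamine synthesis and feeds adenine back to salvage. MTAP read 7.41 and 7.69 under zerumbone, against 9.48 and 9.53 under DMSO, a 3.88-fold fall (limma adjusted p = 2.10e-04). With the mean of the rows annotated to MTAP in place of the brightest, its difference was -1.09 instead of -1.96, and it was still called (5.89e-04). The 2 phosphorylases of purine nucleosides and methylthioadenosine, PNP and MTAP, thus moved in opposite directions.

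Among 6 nucleoside kinases, none at background level on all 4 arrays, 2 rose and 4 fell. Over all genes, 18.4% were called higher and 17.7% lower. ADK, which phosphorylates adenosine, fell 2.45-fold, with readings of 7.15 and 7.07 under zerumbone, against 8.58 and 8.23 under DMSO (limma adjusted p = 0.00132). TK1, the cytosolic thymidine kinase that is high in S phase, fell 2.10-fold, with readings of 8.65 and 8.63 under zerumbone, against 9.65 and 9.77 under DMSO (3.33e-04). DGUOK, the mitochondrial kinase of purine deoxynucleosides, rose by 0.39 (0.0191), a call lost with every transcript cluster tested (0.0675) and without zerumbone replicate 1 (0.0695), DMSO replicate 1 (0.0609) or DMSO replicate 2 (0.123).

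Of 9 deaminases measured, 3 rose and 1 fell, against 18.4% of all genes called higher and 17.7% lower. Beside CDA, AMPD3, which turns AMP into IMP, rose 2.24-fold, with readings of 7.81 and 7.96 under zerumbone, against 6.69 and 6.75 under DMSO (limma adjusted p = 3.61e-04). CDADC1, named for its deaminase domain, rose by 0.49 (0.0206), a call lost with every transcript cluster tested (0.0619) and without zerumbone replicate 1 (0.0783) or DMSO replicate 1 (0.116). GDA, which deaminates guanine to xanthine and so removes it from salvage, fell 4.31-fold, with readings of 10.00 and 10.14 under zerumbone, against 12.21 and 12.14 under DMSO (8.22e-05). The adenosine deaminase gene ADA differed by -0.23 and did not pass (0.0659).

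Of 7 nucleoside transporter genes, 4 fell and none rose, against 17.7% of all genes called lower. SLC29A3, the equilibrative transporter of intracellular membranes, read 5.84 and 6.18 under zerumbone, against 9.49 and 9.44 under DMSO, a 10.95-fold fall (limma adjusted p = 7.98e-05). SLC28A2, a sodium-driven transporter of purine nucleosides and uridine, read 6.23 and 6.15 under zerumbone, against 8.90 and 8.82 under DMSO, a 6.34-fold fall (4.73e-05). Both were above background level on all 4 arrays. SLC29A2, at background level under zerumbone and on 1 DMSO array, was called lower (0.0376), but lost the call whichever array was left out (0.0736 to 0.208) and with every transcript cluster tested (0.128). SLC28A1 and SLC28A3 were at background level on all 4 arrays.

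Of 14 genes on the nucleotidase list, whose products remove phosphates from nucleotides, 2 rose and 3 fell. These shares were close to the 18.4% and 17.7% of all genes. NT5C3A, which dephosphorylates UMP and CMP and so makes uridine and cytidine, rose 1.94-fold, with readings of 9.64 and 9.84 under zerumbone, against 8.79 and 8.77 under DMSO (limma adjusted p = 0.00104). ENTPD4, of the Golgi and lysosomes, rose by 0.50 (0.00308). ENTPD5, of the endoplasmic reticulum, fell 2.69-fold (4.09e-04), and SAMHD1, which degrades deoxynucleoside triphosphates, fell 2.28-fold (9.41e-04). NT5E, the cell surface enzyme CD73 that makes adenosine, fell by 0.52 (0.0127), a call lost without DMSO replicate 2 (0.0886).

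Nucleotide kinases, which carry salvaged monophosphates to triphosphates, had 1 rise and 3 falls among 11 genes. Over all genes, 18.4% were called higher and 17.7% lower. DTYMK, the thymidylate kinase, fell by 0.56 (limma adjusted p = 0.00208). NME4, a mitochondrial enzyme, fell by 0.63 (0.00971), a call lost without DMSO replicate 1 (0.0748) or DMSO replicate 2 (0.0567). NME1 fell by 0.48 (0.00286), and its sequence is close to that of NME2, so that probes may be shared. NME6 rose by 0.34 (0.0185), and lost the call after median centring (0.0625), with every transcript cluster tested (0.0738) and without zerumbone replicate 2 (0.0651), DMSO replicate 1 (0.0712) or DMSO replicate 2 (0.126). On the purine base salvage list of 3 genes, none passed. HPRT1, which recovers hypoxanthine and guanine, was at -0.32 with a limma adjusted p of 0.0583, APRT at 0.06 (0.520) and XDH at 0.08 (0.438). XDH, on this list although it breaks purine bases down, was at background level on all 4 arrays.

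The products of UPP1 lead to ribose phosphates and to uracil. Of 8 genes that handle ribose and deoxyribose phosphates, none at background level on all 4 arrays, 2 rose and 5 fell. Over all genes, 18.4% were called higher and 17.7% lower. PGM2, the phosphopentomutase that turns ribose-1-phosphate into ribose-5-phosphate, read 9.01 and 9.05 under zerumbone, against 9.77 and 9.92 under DMSO, a 1.76-fold fall (limma adjusted p = 0.00108). PRPS2, which makes PRPP from ribose-5-phosphate, fell 3.84-fold (4.80e-04), and RPIA, which interconverts pentose phosphates, fell 3.23-fold (1.97e-04). PGM1, a hexose mutase that also accepts ribose phosphates, fell 1.65-fold (0.00344). DERA, the deoxyribose phosphate aldolase, fell by 0.65 (0.0420), a call lost with every transcript cluster tested (0.0941) and without zerumbone replicate 1 (0.165), zerumbone replicate 2 (0.0765) or DMSO replicate 2 (0.128, difference -0.42). RBKS, a ribokinase above background level on 1 DMSO array, read 6.35 and 6.38 under zerumbone, against 5.00 and 4.91 under DMSO (1.37e-04). PRPS1, the second PRPP synthetase, rose by 0.42 (0.00568), a call lost without DMSO replicate 1 (0.0573).

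On the uracil side, DPYD, the first and rate-limiting enzyme of uracil and thymine breakdown, read 4.68 and 4.65 under zerumbone, against 6.11 and 6.11 under DMSO. DPYD was at background level on both zerumbone arrays, so it was at least 2.33-fold lower, with the background percentile in place of the dimmer readings (limma adjusted p = 1.00e-04). DPYS, UPB1 and AGXT2, the later steps, were at background level on all 4 arrays and did not pass. Of the 4 genes on this list, 0 rose and 1 fell. Over all genes, 18.4% were called higher and 17.7% lower. With 3 of the 4 at background level, the list says little on whether transcripts of this pathway changed.

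Transcripts of all 5 measured genes for synthesis of uridine and cytidine nucleotides from small precursors fell, against 17.7% of all genes called lower. The synthesis itself was not measured. CAD, which catalyses the first steps, read 5.17 and 5.19 under zerumbone, against 7.25 and 7.23 under DMSO, a 4.18-fold fall (limma adjusted p = 5.62e-05). DHODH, the mitochondrial step, fell 2.26-fold (3.65e-04) and UMPS, which completes UMP, 1.89-fold (3.21e-04). CTPS1 and CTPS2, which turn UTP into CTP, fell 2.95-fold (9.67e-05) and 1.70-fold (0.00161). The median difference of these 5 genes was -1.18, against 0.07 over all genes.

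By closeness of profile, the 5 genes nearest to UPP1 among 20172 candidates, without microRNA and small nucleolar genes or provisional gene names, were ZFAND2A, HSPA7, CTH, GABARAPL1 and MT2A. Closeness was the root-mean-square distance between log2 profiles over the 4 arrays, each centred on its own mean. The distances were 0.135 for ZFAND2A, 0.136 for HSPA7, 0.150 for CTH, 0.176 for GABARAPL1 and 0.195 for MT2A. HSPA7 is nearly identical to HSPA6, and probes may be shared. The differences of these 5 genes ran from 4.81 to 5.24. When genes were ranked by the difference of group means alone, 4 of the 5 were again among the nearest. Both rankings rest largely on the size of the rise for which UPP1 was chosen, so their overlap is no separate check. Shared regulation was not tested.

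**Figure D4:**
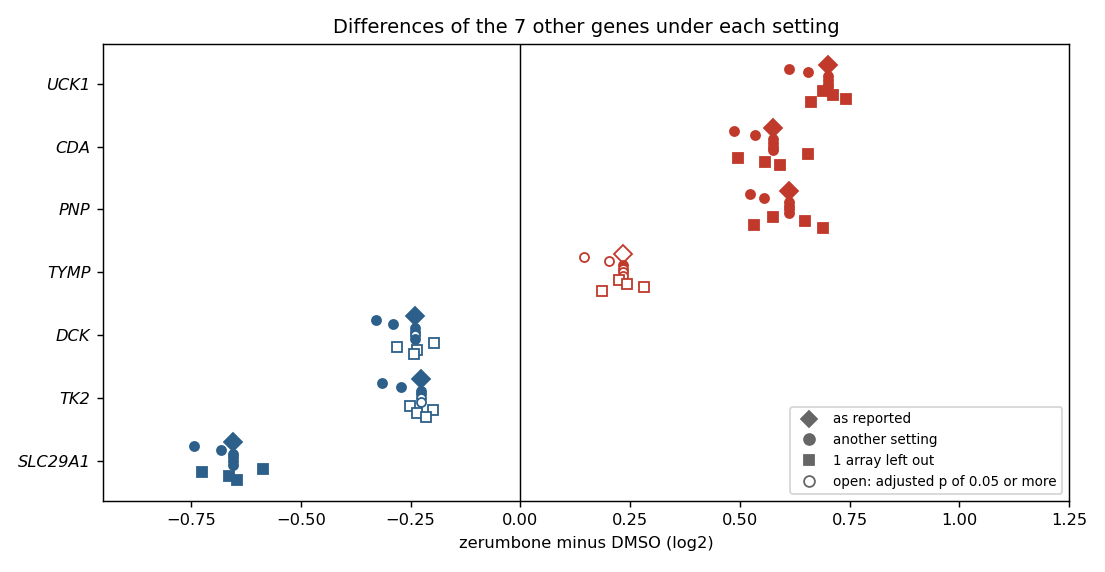
Zerumbone minus DMSO difference (log2) of the 7 other salvage genes as reported (diamonds), under other settings (circles) and with 1 array left out (squares); open symbols have an adjusted p of 0.05 or more. All 7 keep their direction, and DCK and TK2 turn open whenever an array is left out.

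Markers were read to check the labelled cell type. Of 4 epithelial markers, KRT8, KRT18 and CDH1 were above background level on all 4 arrays and EPCAM on none. FOXA2, a liver transcription factor, was above it on all 4 arrays, but 6 of 8 hepatocyte markers, AFP among them, were at background level in both groups. KRT8 (-1.31), KRT18 (-0.75), CDH1 (-0.48) and FOXA2 (-0.42) fell under zerumbone, with limma adjusted p from 2.79e-04 to 0.0190, and their part in the results above was not tested. Of leukocyte markers, which are of interest because CDA and TYMP are high in myeloid cells, 6 of 7 were at background level in both groups, PTPRC and CD14 included. The exception, CD68, a lysosomal membrane protein, was above it on all 4 arrays and carried the summed level of that list, 14.52 to 14.54 log2 units under zerumbone and 13.58 to 13.63 under DMSO. All 3 endothelial and 3 of 4 fibroblast markers were at background level in both groups. Also called by limma were CD68, at 0.93 (adjusted p = 3.62e-04), PECAM1, at -0.25 (0.0345), and DCN, at -0.32 (0.0416). PECAM1 was at background level on all 4 arrays, and DCN was above it on 1 DMSO array. Over all genes, 18.4% were called higher and 17.7% lower.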

How the data were processed

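The deposited table holds log2 values of all 4 arrays. The authors used RMA and the Affymetrix Expression Console, per the submitters' processing notes, with no version or genome build given in the sources used here. The values reach 19.93, above the usual range of a scanner, so a step after RMA may have been applied. Of 70523 rows, 2995 rows of controls or probe regions were dropped, and 23781 of the 67528 transcript clusters carry 1 gene symbol in the platform annotation, which gave 22465 genes, with the brightest row kept for the 479 with several.

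Zerumbone minus DMSO was fitted by limma 3.58.1 (lmFit, then eBayes, R 4.3.3), with 2 residual degrees of freedom. The variance of each gene was moderated with 2.88 prior degrees of freedom, estimated over all genes. The steps were tested on simulated data. The members and lists were chosen with earlier results of these data known. Named genes are the members, up to 3 called genes a list with the largest change, those against their list's direction, and the 5 nearest to UPP1. Other genes completing a count of 5 or fewer, with ADA, the HPRT1 group and UPP2, were named after their values were seen. Markers were read as levels, with their limma calls beside them. Alternatives were other scalings, row choices, filters, variance models and leaving out arrays. List genes without a cluster of their own were not analysed here. Plots used matplotlib 3.10.9.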

Additional observations from a re-analysis of the deposited data

Results flagged for a closer look

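The antigenomic background rows hold no human gene and were not tested as genes, but they set the background level used above. They were higher on the zerumbone arrays than on the DMSO arrays. Their median difference was 0.0785 on the log2 scale, with 22 of 23 rows higher, and their array medians averaged 3.16 under zerumbone and 3.11 under DMSO.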

How the results depend on the processing

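UPP1 stayed between 4.88 and 5.20 under all 10 alternatives. UCK1, CDA, PNP and SLC29A1 kept direction and call in all 10, with adjusted p up to 0.0159, 0.0433, 0.0311 and 0.0267. With every transcript cluster tested, 1 of the 7 genes fell instead of 3, since DCK (0.147) and TK2 (0.155) lost the call, and TK2 also did with a trended, robust variance (0.0574). Leaving out an array gave 1 fall in each of the 4 cases. Over all genes, 4125 rose, against 2557 to 3822 with an array left out. Of 33 called genes in the wider lists other than the members, 24 kept the call throughout and 9 lost it without at least 1 array. Called higher genes were 51.0% of calls, 41.0% after median centring and 44.4% after cyclic loess. Deaminases had 3 falls instead of 1 after median centring and with dim genes left out, and purine base salvage 1 instead of 0 in those settings, after cyclic loess and without zerumbone replicate 2. With every cluster tested, nucleoside kinases had 1 rise and 2 falls, and nucleotide kinases 0 rises, as after median centring. With an array left out, nucleoside kinases had 1 or 2 rises and 2 falls, deaminases 1 or 2 falls and nucleotide kinases 0 or 1 rise. Phosphorylases had 1 rise without either zerumbone array, and ribose phosphate use 1 without DMSO replicate 1. Above the 99th percentile of background on all arrays were 5 members instead of 6, and above the cluster median 8. The causes were not tested. No paired analysis was possible because the labels give no replicate numbers. The numbers in the array titles are lower for DMSO than for zerumbone, so a processing order that followed them and the groups cannot be told apart.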
